A study of Mus musculus with 4 samples.

Results

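The genes described here encode markers of fibroblasts and other mesenchymal cells together with matricellular proteins, and they were followed in 4 mouse cell populations on the way from mesoderm to cardiomyocytes. The members were 10 RefSeq identifiers, for Lum, Dcn, Postn, Fn1, Sparc, Thy1, Spp1, Anxa1, S100a4 and Vim, and they were chosen by function with their signals on these same arrays in view. Their levels are therefore a description. Of the 10 identifiers, 9 had a probe on the arrays, with 12 probes in all, out of 33226 identifiers with 39428 probes. The identifier given for Postn, NM_015784, had no probe, and another identifier of the same gene, NM_001198766, is described separately and is not counted among the 9.

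All 4 populations were derived from mouse embryonic stem cells, differentiated in medium without leukemia inhibitory factor. Flk1+ MPC are mesodermal precursor cells at day 4.5, which express the VEGF receptor Flk1. sfPCB are PDGFRα+Flk1− cardioblasts that formed spontaneously by day 5.5 without CsAYTE, with DMSO as the vehicle control in these cultures. PCB are defined by the same surface markers and were obtained at day 5.5 with CsAYTE. This mixture holds Cyclosporin A, Y27632 (an inhibitor of ROCK), EW7197 (an inhibitor of ALK5) and Trolox (an antioxidant). The shared definition does not make PCB and sfPCB alike in expression. The median log2 ratio of PCB over sfPCB was 4.73 for cardiomyocyte markers and -3.82 for endothelial markers. M+CM are αMHC+ cardiomyocytes at day 10.5, for which the label does not say whether CsAYTE was given. The paper describes M+CMs as cardiomyocytes differentiated from PCBs, which it induced with CsAYTE. The paper's methods name the mouse ESC lines EMG7 and E14Tg2a. EMG7 carries GFP under the αMHC promoter, so GFP reports cells in which this cardiac promoter is active. According to the methods, sorted Flk1+ MPC were plated on OP9, a mouse bone marrow stromal line treated to stop its growth, or on gelatin. The sources used here do not state which of these the cells on the arrays came from. The paper does report that mouse PCBs arose in OP9 culture and were not induced without feeder cells. By that account PCB formed on OP9. A contribution of OP9 RNA to the signals was not tested.

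Each population was hybridized to 1 single-colour Agilent array, so there were no replicates and no test between populations was possible. Signals were the background-subtracted spot intensities, scaled so that the 75th percentile was the same on every array. The error beside a log2 ratio comes from the scanner software's error of each spot and leaves out differences between cultures. Of the spots, 73.3% to 76.2% were well above background on each array, and the lowest scaled signal called so was between 15.1 and 15.9. No spot was saturated. The marker signals followed the names of the populations in part. Kdr, which encodes Flk1, was at 24857.9 in Flk1+ MPC, 5510.6 in sfPCB, 2363.1 in PCB and 3992.9 in M+CM. Pdgfra was at 7236.6, 3646.6, 9135.9 and 918.3 in the same order, so that sfPCB, which are named for this receptor, had a lower signal than Flk1+ MPC. Myh6, which encodes αMHC, was at 40.6, 43.5, 6156.8 and 112738.1. Kdr was well above background in sfPCB and PCB as well, although both are defined as Flk1−.

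Lumican and decorin, encoded by Lum and Dcn, are small leucine-rich proteoglycans that bind collagen fibrils and govern their assembly. Fibronectin is the adhesive matrix protein along which mesodermal cells migrate, and periostin, osteopontin (Spp1) and Sparc are matricellular proteins, secreted into the matrix mainly to regulate cells rather than to build the scaffold. Thy1 is a surface glycoprotein used to sort fibroblasts, vimentin is the intermediate filament of mesenchymal cells, Anxa1 is a calcium-dependent phospholipid-binding protein and S100a4, also called fibroblast-specific protein, is a small calcium-binding protein. Many of these genes are expressed in cells other than fibroblasts, among them endothelial cells, macrophages and stromal cells.

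A promoter sequence from RefSeq was matched for 5 of the 9 members with a probe, namely Vim, S100a4, Spp1, Sparc and Anxa1, and not for Lum, Dcn, Fn1 and Thy1. The 250 bases before the outermost start are shown for S100a4, Spp1 and Anxa1, whose signals moved together, and for Vim, whose signal was high in all 4 populations (build GRCm38.p6). Capitals mark 3 motifs searched on both strands, the TATA box TATAAA, the SMAD box CAGAC, shown as its reverse complement where it lies on the opposite strand, and the RUNX site ACCACA, which did not overlap in these windows. The windows are chr3:90603520-90603769 on the plus strand for S100a4, chr5:104434861-104435110 on the plus strand for Spp1, chr19:20390672-20390921 on the minus strand for Anxa1 and chr2:13574061-13574310 on the plus strand for Vim.
S100a4: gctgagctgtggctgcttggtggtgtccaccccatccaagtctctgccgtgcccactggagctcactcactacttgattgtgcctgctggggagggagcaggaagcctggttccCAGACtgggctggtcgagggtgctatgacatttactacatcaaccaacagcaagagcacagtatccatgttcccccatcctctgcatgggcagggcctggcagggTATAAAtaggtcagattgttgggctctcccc
Spp1: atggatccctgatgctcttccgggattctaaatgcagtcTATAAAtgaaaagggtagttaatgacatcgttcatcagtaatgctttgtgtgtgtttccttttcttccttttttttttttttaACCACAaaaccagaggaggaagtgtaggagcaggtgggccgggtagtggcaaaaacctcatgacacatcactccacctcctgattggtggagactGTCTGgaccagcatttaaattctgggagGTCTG
Anxa1: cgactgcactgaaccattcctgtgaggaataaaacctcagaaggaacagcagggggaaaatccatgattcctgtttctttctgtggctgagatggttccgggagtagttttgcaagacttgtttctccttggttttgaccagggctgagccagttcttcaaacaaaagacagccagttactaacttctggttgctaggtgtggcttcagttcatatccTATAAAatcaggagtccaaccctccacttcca
Vim: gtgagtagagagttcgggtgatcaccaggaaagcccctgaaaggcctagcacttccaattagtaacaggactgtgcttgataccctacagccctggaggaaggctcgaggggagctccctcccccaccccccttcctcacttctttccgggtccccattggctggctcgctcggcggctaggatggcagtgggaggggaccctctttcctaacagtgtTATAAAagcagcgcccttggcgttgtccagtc
The first base of TATAAA lay 31 bases before the start in S100a4, 32 in Anxa1 and 32 in Vim. In Spp1 it lay 211 bases before this start. TATAAA on the same strand, between 40 and 20 bases before the start, was found in 1.99% of the 32851 promoters in the RefSeq table, and TATAAA anywhere in the window in 12.4%. The SMAD box was in the S100a4 and Spp1 windows and in 42.2% of all promoters, and the RUNX site was in the Spp1 window and in 14.0%. The AP-1 site TGANTCA, searched in the same way, had no match in these 4 windows and was in 6.75% of all promoters. These matches describe the letters only.

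**Figure D1:**
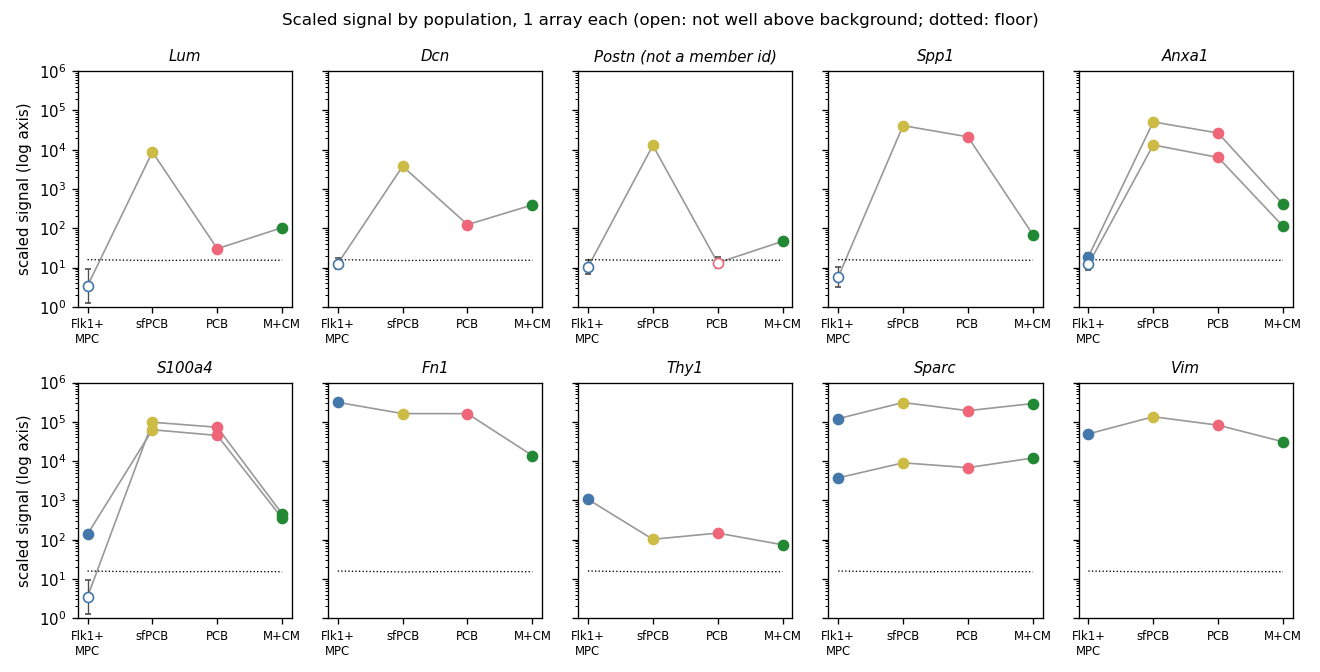
Scaled signal (log axis) of each probe of the 9 members, and of the other Postn identifier, in the 4 populations, with 1 array each. Points are probes, bars the scanner error, open points are not well above background and the dotted line is the lowest signal called well above background; Lum, Dcn and Postn peak in sfPCB, while Spp1, Anxa1 and S100a4 are high in both sfPCB and PCB.

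The proteoglycans Lum and Dcn were highest in spontaneously formed cardioblasts and were low in CsAYTE-induced ones. The scaled signal of Lum (NM_008524; chr10:97565501-97572703) was 3.4 in Flk1+ MPC, which was not well above background, 8781.9 in sfPCB, 30.2 in PCB and 103.8 in M+CM. That of Dcn (NM_007833; chr10:97479500-97518163) was 12.5 in Flk1+ MPC, also not well above background, 3793.5 in sfPCB, 123.8 in PCB and 393.0 in M+CM. Both genes therefore had the same order of populations, with sfPCB first, then M+CM, PCB and Flk1+ MPC, and no neighbours in that order were within 1 error of each other. The genes also neighbour each other on chromosome 10 in the RefSeq table (GRCm38.p6, the build of all gene positions given here). In PCB, Lum was 291-fold lower than in sfPCB (log2 ratio -8.18, error 0.26) and Dcn was 30.6-fold lower (log2 ratio -4.94, error 0.21). Against Flk1+ MPC, sfPCB had at least 551-fold more Lum and at least 238-fold more Dcn signal, as bounds, because the dimmer array was not well above background. In M+CM against PCB both were higher again, Lum 3.44-fold (log2 ratio 1.78) and Dcn 3.18-fold (log2 ratio 1.67), and both stayed below the sfPCB level.

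The probe for the other Postn identifier (NM_001198766; chr3:54359267-54391041) read 10.2 in Flk1+ MPC and 13.2 in PCB, neither well above background, 12883.5 in sfPCB and 46.6 in M+CM. Periostin, a matricellular protein of activated fibroblasts and heart valve mesenchyme, was thus measured above background in sfPCB and M+CM only. The sfPCB signal was at least 829-fold above that of PCB and at least 808-fold above that of Flk1+ MPC.

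Spp1, Anxa1 and S100a4 were high in both day 5.5 populations and low before and after. Spp1 (NM_001204233; chr5:104435111-104441053), which encodes osteopontin, was at 5.7 in Flk1+ MPC, not well above background, 41107.3 in sfPCB, 21325.2 in PCB and 69.3 in M+CM. The signal in PCB was at least 1340-fold above that in Flk1+ MPC, and in sfPCB at least 2580-fold. Compared with PCB, in M+CM it was 308-fold lower (log2 ratio -8.27). Between the cardioblast populations the difference was small beside these, with PCB 1.93-fold lower than sfPCB (log2 ratio -0.95, error 0.20).

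Anxa1 (NM_010730; chr19:20373434-20390671) had 2 probes. The brighter read 18.8 in Flk1+ MPC, 51116.3 in sfPCB, 26618.9 in PCB and 407.5 in M+CM. The other read 12.0 in Flk1+ MPC, not well above background, 13232.2 in sfPCB, 6364.8 in PCB and 112.8 in M+CM. Both probes put the populations in the same order. PCB were 1410-fold above Flk1+ MPC by the brighter probe and at least 399-fold by the other. Over both probes Anxa1 was 1.998-fold lower in PCB than in sfPCB, just short of the 2-fold threshold (log2 ratio -1.0, error 0.20), and 60.7-fold lower in M+CM than in PCB (log2 ratio -5.92, error 0.21).

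S100a4 (NM_011311; chr3:90603770-90606045) also had 2 probes, and these disagreed in Flk1+ MPC. There 1 probe read 3.5, not well above background, and the other 137.4, well above it. In the other populations the first read 97887.8 in sfPCB, 72946.4 in PCB and 453.4 in M+CM, and the second 63025.3, 45092.5 and 352.4. The log2 ratio of PCB over Flk1+ MPC was accordingly 14.33 by the first probe, at least 4580-fold as a bound, and 8.36, or 328-fold, by the second. The probes agreed on the high signal at day 5.5 and left the size of the rise from Flk1+ MPC unsettled. Over both probes PCB were close to sfPCB (log2 ratio -0.45), and M+CM were 143-fold below PCB (log2 ratio -7.16).

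Fn1 and Thy1 ran the other way and were highest in Flk1+ MPC. The signal of Fn1 (NM_010233; chr1:71585473-71653280) was 314177.9 in Flk1+ MPC, 162503.2 in sfPCB, 161970.1 in PCB and 13847.8 in M+CM. The day 5.5 populations were within 1 error of each other (log2 ratio 0.00, error 0.20) and lay 1.93-fold (sfPCB) and 1.94-fold (PCB) below Flk1+ MPC. The larger step came afterwards, with Fn1 11.7-fold lower in M+CM than in PCB (log2 ratio -3.55, error 0.20). Thy1 (NM_009382; chr9:44043384-44048579) was at 1065.2 in Flk1+ MPC, 102.4 in sfPCB, 147.2 in PCB and 74.2 in M+CM. Here the step came before day 5.5. Thy1 was 10.4-fold lower in sfPCB and 7.24-fold lower in PCB than in Flk1+ MPC, and 1.98-fold lower in M+CM than in PCB. It was the only 1 of the 9 members with a higher signal in PCB than in sfPCB beyond 1 error (log2 ratio 0.52, error 0.21), although with normexp Fn1 was also higher (log2 ratio 0.25).

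Sparc and Vim varied least among the 9 members and were far above background in all 4 populations. Vim (NM_011701; chr2:13574311-13582826) was at 49331.4 in Flk1+ MPC, 135140.1 in sfPCB, 82385.2 in PCB and 31107.8 in M+CM, a range of 4.34-fold. It was 2.74-fold above Flk1+ MPC in sfPCB (log2 ratio 1.45), and 2.65-fold lower in M+CM than in PCB (log2 ratio -1.41, error 0.20). Sparc (NM_009242; chr11:55394159-55420080), which binds collagen and calcium, had 2 probes. The brighter read 120533.5 in Flk1+ MPC, 311092.5 in sfPCB, 192820.2 in PCB and 292684.5 in M+CM, and the other 3745.5, 9062.4, 6836.2 and 12010.7. Over both probes the signal ranged 2.79-fold, and M+CM and sfPCB were within 1 error of each other. Both probes were lowest in Flk1+ MPC and put M+CM above PCB, by 1.52-fold for the brighter and 1.76-fold for the other. Sparc was thus the only member, besides Lum and Dcn, whose signal was higher in M+CM than in PCB.

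**Figure D2:**
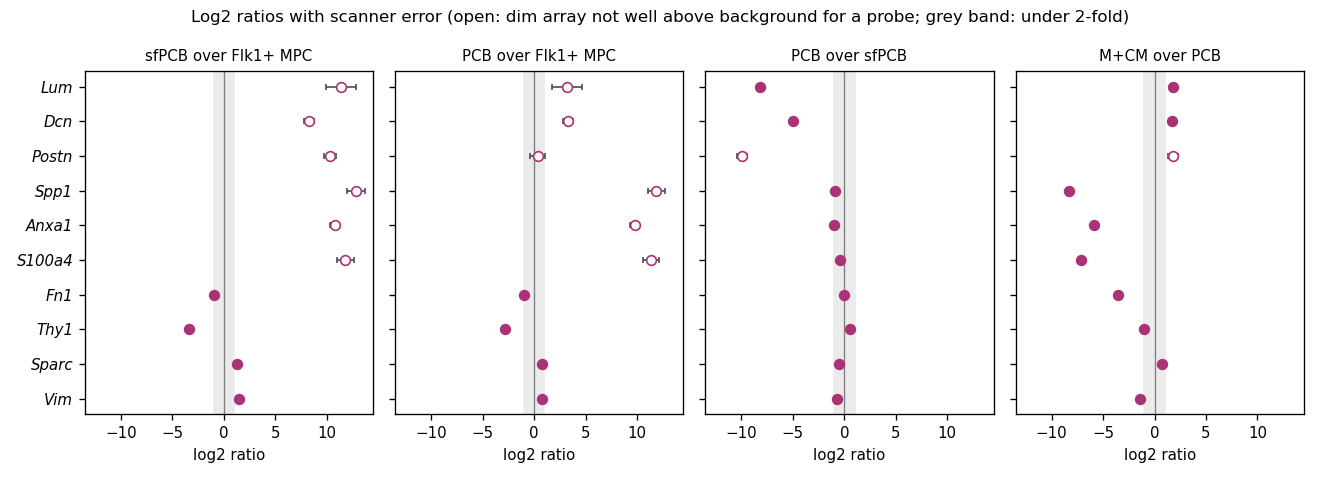
Log2 ratios of the 9 members and the other Postn identifier in 4 comparisons, with 1 array per population. Points are ratios averaged over probes, bars the scanner error, open points mark a dim array that was not well above background for at least 1 probe, and the grey band spans ratios under 2-fold; Lum and Dcn at -8.18 and -4.94 stand outside the band in PCB over sfPCB, where the other 7 members lie within it.

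The members were then counted at 2-fold. In sfPCB, 7 of the 9 members were higher than in Flk1+ MPC, beside 13.0% of all 25744 identifiers compared, and 1, Thy1, was lower, beside 12.7%. At 30-fold, the threshold the study used, 5 were higher (Lum, Dcn, Spp1, Anxa1 and S100a4), beside 1.25%. In PCB, 5 were higher, beside 12.7% of 25855, and 1 was lower, beside 12.1%, and 3 of the higher ones (Spp1, Anxa1 and S100a4) passed 30-fold, beside 1.33%. For Lum the difference between PCB and Flk1+ MPC was at least 1.89-fold as a bound, so its place among these 5 rests on a signal near background. The median log2 ratio of the 9 members was 8.25 in sfPCB and 3.17 in PCB over Flk1+ MPC, and that of all identifiers was -0.22 and -0.20. Both comparisons share the Flk1+ MPC array. Because the members were chosen with these signals known, nothing is read from their share against the background.

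PCB and sfPCB are the day 5.5 populations with and without CsAYTE. With 1 array each, its effect cannot be told apart from other differences between these populations. Compared with sfPCB, 0 members were at least 2-fold higher in PCB, beside 6.14% of 25232 identifiers, and 2 were lower (Lum and Dcn), beside 7.45%. Both were also lower at 30-fold, beside 0.281%. The median log2 ratio was -0.71 for the members and 0.03 for all identifiers. Without scaling of the arrays, Spp1 and Anxa1 also passed 2-fold, which made 4 lower members. Relative to PCB, in M+CM 2 members were higher (Lum and Dcn), beside 20.4% of 26134 identifiers, and 5 were lower (Fn1, Spp1, Anxa1, S100a4 and Vim), beside 15.2%, of which Spp1, Anxa1 and S100a4 were lower at 30-fold, beside 0.769%. The median was -1.41 for the members and 0.16 for all identifiers. From Flk1+ MPC to M+CM, 6 were higher (Lum, Dcn, Sparc, Spp1, Anxa1 and S100a4), beside 22.0% of 26497, and Fn1 and Thy1 were lower, beside 21.4%. The Fn1 signal in M+CM was 22.7-fold and that of Thy1 14.4-fold below Flk1+ MPC.

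Spp1, Anxa1 and S100a4 were at least 2-fold higher in PCB than in both Flk1+ MPC and M+CM, as were 4.64% of 26970 identifiers. In sfPCB this held for 6 members, namely these 3 with Lum, Dcn and Vim, and for 6.30% of 27040 identifiers. Of the remaining members in PCB, Vim was above both, by less than 2-fold over Flk1+ MPC, and the rest lay between Flk1+ MPC and M+CM.

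The wider matrix and mesenchymal gene lists, which leave out the members, had more genes at least 2-fold lower than higher in PCB against sfPCB, in each of the 7 lists of matrix, receptor and intracellular genes, under the main scaling, without scaling and with quantile normalization or normexp. With an offset of 50 this held for these lists except the small leucine-rich proteoglycans. Of all 25232 identifiers compared, 7.45% were lower and 6.14% higher in PCB than in sfPCB under the main scaling. The shares of all identifiers given with the member counts also stand beside the list counts below. The lists were chosen with earlier results of these data known, so nothing is read from their counts against these shares. Of the matricellular proteins, 14 of 20 genes compared were at least 2-fold higher in sfPCB than in Flk1+ MPC and 2 were lower, with a median log2 ratio of 1.79, and in PCB the counts were again 14 and 2. Against sfPCB, 2 of 19 were higher in PCB and 6 were lower. Thbs4, a thrombospondin of muscle and tendon, had the highest ratio in PCB over sfPCB (log2 2.72, error 0.21), and Tnc, the tenascin of remodelling tissue, the lowest (log2 -2.90, error 0.26). In M+CM over PCB, 5 were higher and 10 lower, between Spock2, a testican proteoglycan, with a log2 ratio of 4.39 and Thbs2, an antiangiogenic thrombospondin, with -5.81. Thbs2, like Spp1, was high at day 5.5, with signals of 4.6 (not well above background) in Flk1+ MPC, 2429.4 in sfPCB, 3015.8 in PCB and 53.6 in M+CM.

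Among the small leucine-rich proteoglycans other than Lum and Dcn, 4 of 10 on the array were never well above background (Aspn, Kera, Epyc and Ecm2). Of the 6 compared, 0 were at least 2-fold higher in PCB than in sfPCB and 4 were lower, with a median log2 ratio of -1.04. With normexp 1 was lower, and with an offset of 50 the count was 0. Bgn, which encodes biglycan, had the smallest difference (log2 ratio -0.42) and was 3608.1 in sfPCB and 2688.7 in PCB. Podn had the largest (log2 ratio -2.08, error 0.46), with a PCB signal not well above background. In M+CM against PCB 1 was higher, Podn (log2 ratio 4.81), and 3 were lower, with Bgn the lowest (log2 ratio -3.05). None of the 6 had a PCB over sfPCB ratio as low as those of Lum and Dcn.

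Of 24 matrix scaffold and crosslinking genes, 0 were at least 2-fold higher and 10 lower in PCB than in sfPCB, with a median log2 ratio of -0.89. Vcan, the large proteoglycan versican of the embryonic heart, had the highest ratio (log2 0.97) and Nid1, which links laminin to collagen in basement membranes, the lowest (log2 -2.41). Compared with PCB, in M+CM 5 were higher and 10 lower, between the laminin chain Lamc1 (log2 1.95) and the collagen crosslinking enzyme Lox (log2 -5.89). Among matrix proteases and inhibitors, 0 of 16 were higher and 8 lower in PCB than in sfPCB. The gelatinase Mmp9 had the lowest ratio (log2 -4.98, error 0.71) and was not well above background in PCB, and Adamts1, which cleaves proteoglycans, had the highest (log2 0.35). Relative to PCB, in M+CM 2 of 15 were higher and 8 lower, between the plasminogen activator Plat (log2 2.41) and Mmp2 (log2 -4.32).

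Of 17 integrins and matrix receptors, 1 was at least 2-fold higher in PCB than in sfPCB, Itgb3 (log2 ratio 1.45, error 0.22), a chain of integrins that bind osteopontin and fibronectin, and 8 were lower, with Itga8 the lowest (log2 ratio -3.45). Itgb3 was at 36.7 in Flk1+ MPC, 276.6 in sfPCB, 757.7 in PCB and 1062.0 in M+CM, so it was highest in M+CM, where Spp1 and Fn1 were below their PCB level. In M+CM over PCB 6 of 18 were higher and 2 lower. Itgb8 had the highest ratio (log2 3.63, error 1.45), on a PCB signal not well above background, and Sdc1, a heparan sulfate proteoglycan of the cell surface, the lowest (log2 -4.60).

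Of 17 annexins and S100 proteins compared, 0 were higher and 7 lower in PCB than in sfPCB, between S100a13 (log2 ratio -0.24) and Anxa8 (log2 ratio -2.38). The Anxa1 receptor genes Fpr1 and Fpr2, in the same list, were never well above background and were not compared. In M+CM against PCB, 2 of 16 were higher and 9 lower, between S100a1, an S100 protein of heart muscle (log2 ratio 1.78), and S100a6 (log2 ratio -5.12), whose signals of 2356.6, 113801.7, 67041.8 and 1922.7 peaked at day 5.5 as those of S100a4 did. Of 12 intermediate filament genes, 1 was higher in PCB than in sfPCB, the muscle filament Des (log2 ratio 3.03), and 3 were lower, with the epithelial keratin Krt18 the lowest (log2 ratio -2.38). Krt8, its partner keratin, had the lowest ratio in M+CM over PCB (log2 -7.11) and Synm the highest (log2 1.81).

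**Figure D3:**
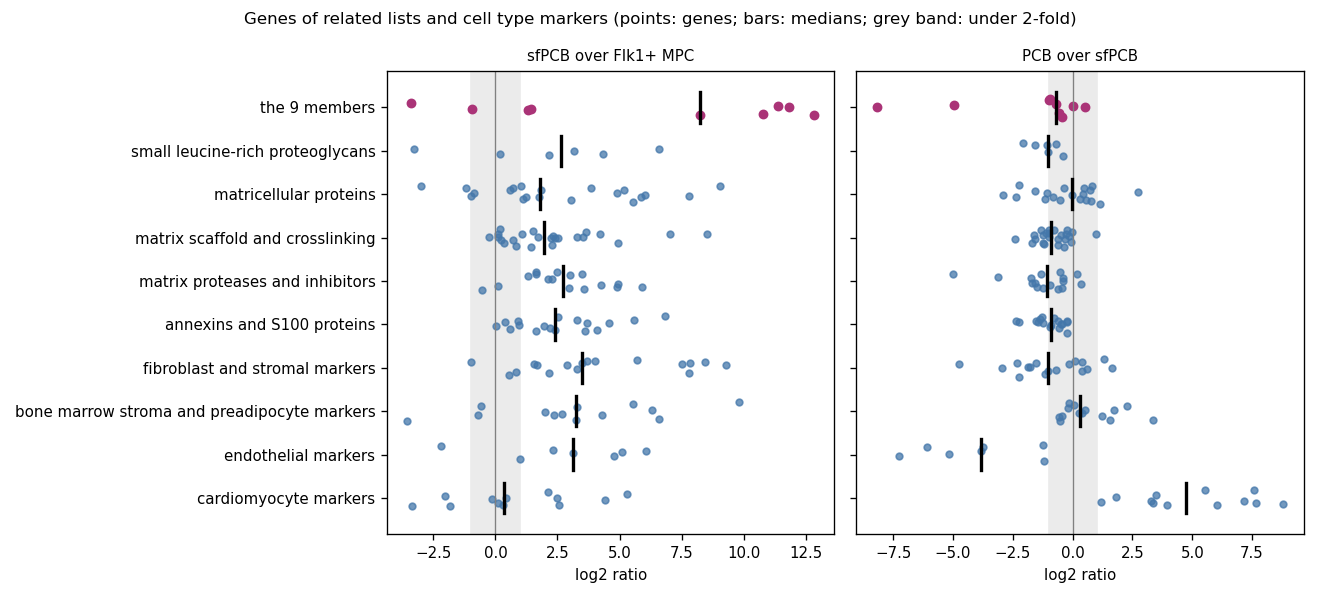
Log2 ratios of the 9 members and of genes in 9 related or cell type lists in sfPCB over Flk1+ MPC and in PCB over sfPCB, with 1 array per population. Points are genes well above background in at least 1 of the 2 arrays, black bars are medians and the grey band spans ratios under 2-fold; in PCB over sfPCB the endothelial median is -3.82, the cardiomyocyte median 4.73 and the member median -0.71.

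Markers of several cell types moved with the members, and in RNA from whole populations fewer cells of a type and less RNA per cell cannot be told apart. The 17 fibroblast and stromal markers, none of which was below background in every population, summed to a scaled signal of 14750.6 in Flk1+ MPC, 302056.0 in sfPCB, 186501.5 in PCB and 26587.3 in M+CM. Of these, 14 were at least 2-fold higher in sfPCB than in Flk1+ MPC and 0 were lower, and 12 were higher and 2 lower in PCB. Against sfPCB, 2 were higher in PCB and 9 were lower, between Il6, an inflammatory cytokine (log2 ratio 1.66), and Cd34, a surface sialomucin of stromal and endothelial cells (log2 ratio -4.73). Compared with PCB, in M+CM 1 was higher, the ectonucleotidase Nt5e (log2 ratio 3.39), and 10 were lower, with the surface antigen Ly6a the lowest (log2 ratio -10.63). The high sum at day 5.5 and the low sum in M+CM are the order seen for Spp1, Anxa1 and S100a4. Col1a2 was the greater part of the sum in sfPCB (175055.7) and in PCB (109297.8). Several markers did not follow that order, among them Pdgfra, highest in PCB, and Twist1, highest in M+CM.

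The 15 bone marrow stroma and preadipocyte markers, of which only Ibsp was never well above background, summed to 11022.3, 40171.0, 56577.0 and 22679.1 in the same order. In PCB over Flk1+ MPC 12 of 14 were at least 2-fold higher and 1 was lower, and in sfPCB 10 of 13 were higher and 1 was lower. They were not lower in PCB than in sfPCB, since 5 of 14 were higher and 0 lower, between Adipoq, an adipocyte hormone (log2 ratio 3.35), and the angiopoietin Angpt1 (log2 ratio -0.56). Relative to PCB, in M+CM 2 were higher, with the adhesion receptor Vcam1 the highest (log2 ratio 1.12), and 9 were lower, with the fatty acid carrier Fabp4 the lowest (log2 ratio -5.95).

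The 8 endothelial markers, of which only Emcn was never well above background, summed to 25291.9 in Flk1+ MPC, 9485.9 in sfPCB, 2660.5 in PCB and 4474.0 in M+CM. Kdr, which encodes the Flk1 of the population definitions, was the greater part of the sum in every population. Gene by gene, 6 of 7 were at least 2-fold higher in sfPCB than in Flk1+ MPC, with a median log2 ratio of 3.11. Only Kdr was lower there (log2 ratio -2.17). In PCB over Flk1+ MPC 0 of 6 were higher and 3 were lower. All 7 compared were at least 2-fold lower in PCB than in sfPCB, with a median log2 ratio of -3.82, between Pecam1 (log2 ratio -1.19) and Cdh5 (log2 ratio -7.25), which was not well above background in PCB. The direction in PCB over sfPCB was that of Lum, Dcn and the other Postn identifier. It was also that of the smaller differences of Spp1, Anxa1, S100a4, Vim and Sparc, and of most changed genes in the matrix lists. In M+CM over PCB 1 of 5 endothelial markers was higher, Pecam1 (log2 ratio 1.04), and 0 were lower, with Cldn5 the lowest (log2 ratio -0.74). The 12 cardiomyocyte markers summed to 7781.9, 12980.1, 601925.2 and 1601683.2, all were at least 2-fold higher in PCB than in sfPCB (11 with normexp), between Nppa (log2 ratio 1.19) and Myh7 (log2 ratio 8.81), and 10 were at least 2-fold higher still in M+CM, between Tnni3 (log2 ratio 8.86) and Myh7 (log2 ratio -0.04), the lowest. The part of these cell types in the differences of the members was not tested.

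The patterns of the members over the 4 arrays were compared by the distance between log2 signals after each gene was centred on its own mean, over 18496 genes and identifiers. This is a description over 4 points. Spp1 and S100a4 were 1.19 apart, Anxa1 and S100a4 1.23, Lum and Dcn 2.74 and Sparc and Vim 1.89. The nearest genes to Lum were Megf10, at a distance of 1.77, and the Postn identifier, at 2.37, and those to Dcn were Hpgd (1.96) and Ifi202b (1.98). Megf10, with signals of 6.3 in Flk1+ MPC, 6574.9 in sfPCB, 30.2 in PCB and 35.3 in M+CM, had the sfPCB peak of Lum. For Spp1 the nearest were S100a4 and Ifi204 (1.43), for S100a4 Ifi204 (0.90) and Spp1, and for Anxa1 the tetraspanin-like membrane protein Tm4sf1 (0.67) and the collagen VI chain Col6a3 (1.14). Fn1 and Thy1 had nearer neighbours, Lsm2 (0.12) and Cdca2 (0.15) for Fn1 and Gsc2 (0.15) and Wnt6 (0.20) for Thy1. For Sparc they were Ppp1r9b (0.07) and Sytl4 (0.11), and for Vim Foxl1 (0.07) and Enpp2 (0.14).

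**Figure D4:**
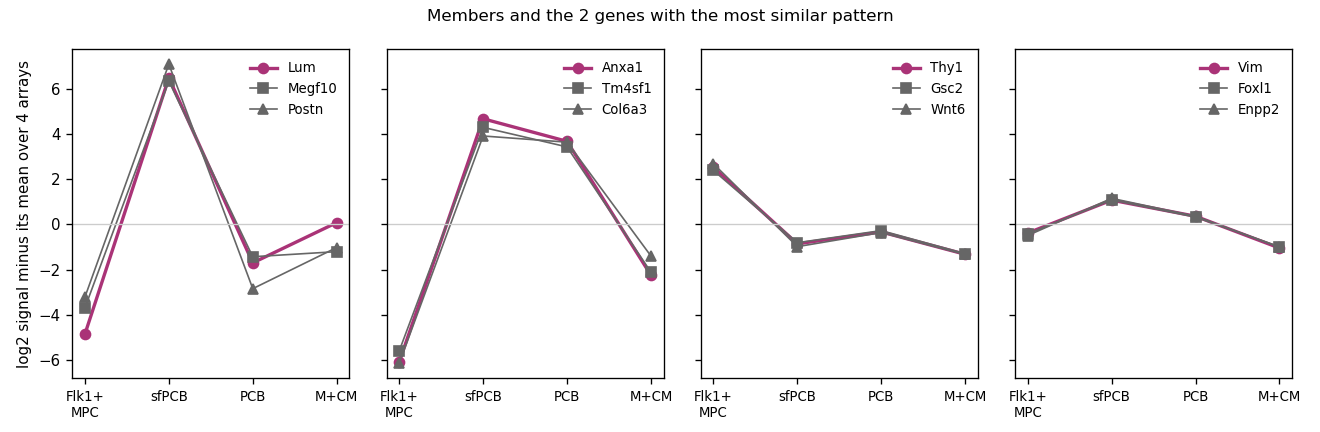
Log2 scaled signal minus its mean over the 4 arrays for Lum, Anxa1, Thy1 and Vim (thick lines) and the 2 genes nearest to each (thin lines). The nearest distances are 1.77 for Lum, 0.67 for Anxa1, 0.15 for Thy1 and 0.07 for Vim, with 1 array per population.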

How the data were processed

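Gene expression was measured in 4 populations with 1 array each, and groups were taken from the sample labels. The intensities deposited by the authors were written by Feature Extraction 11.5.1.1, which subtracts a background, and were not normalized between arrays. The headers annotate the array design on mm9. The deposited value table holds log2 values of the same signals without scaling, and was used as an alternative. The members and all gene lists were chosen with earlier results of these data known.

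Control spots and outlier spots (87 to 144 per array) were left out, and signals were scaled by array until the 75th percentile (1969.6 to 2536.4 before) equalled the mean of the 4 (2198.4). Log2 signals were averaged over the spots of a probe and then over the probes of an identifier, which left 33226 identifiers, of which 21715 were matched to a symbol in RefSeq (GRCm38.p6). A probe was called well above background when the software flagged at least 0.5 of its spots so, and an identifier was compared when this held in at least 1 of the 2 arrays. Where the dimmer array was not well above background, the fold is a bound, the brighter signal over the higher of the dim signal and the lowest signal called well above background on that array. Errors of log2 ratios combine the software's signal errors. No test was made, since none was possible with 1 array per population. The genes named were all members, the highest and lowest gene of each list in PCB over sfPCB and in M+CM over PCB, the 2 genes nearest in pattern to each member, and Kdr, Pdgfra and Myh6. Other genes were named after their values were seen (Fpr1, Fpr2, Col1a2, Twist1 and those of the lists that were never above background). The alternatives were quantile normalization, no scaling, normexp on median spot and local background intensities, an offset of 50, 3 other filters, the brightest probe and the value table. Counting was tested on simulated data. Python 3.11.15 with numpy 2.4.6, pandas 2.3.3 and matplotlib 3.10.9 and R 4.3.3 with limma 3.58.1 were used.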

Additional observations from a re-analysis of the deposited data

How the results depend on the processing

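No member log2 ratio of at least 2-fold changed direction under the 9 alternatives. That of Fn1 in PCB over sfPCB, -0.00, was 0.25 with normexp, beyond its error. In all, 91 of 396 moved by more than their error, 30 of them with normexp and 25 with an offset of 50. The 3 other filters could change counts but not ratios, since no spot was saturated and the detection filters left the signals as they were. The value table repeats the signals without scaling. These 4 alternatives therefore add little to the comparison of ratios. The count of members at least 2-fold higher fell to 2 in PCB over Flk1+ MPC, to 4 in sfPCB over Flk1+ MPC and to 3 in M+CM over Flk1+ MPC when both arrays had to be well above background, since Lum, Dcn and Spp1 were not so in Flk1+ MPC and fewer genes were compared. In PCB over Flk1+ MPC the count was 7 with quantile normalization, where Sparc and Vim passed 2-fold. It was 4 with normexp and 4 with an offset of 50. With quantile normalization the log2 ratio of Fn1 over Flk1+ MPC went from -0.96 to -0.44 in PCB and from -0.95 to -0.32 in sfPCB. Members at least 2-fold lower in PCB than in sfPCB numbered 4 without scaling and 4 in the value table, where the median of all identifiers moved by -0.15 on the log2 scale. Between sfPCB and Flk1+ MPC that median moved by 0.34. With normexp, 2 members were lower in sfPCB than in Flk1+ MPC, and 1 was higher in M+CM than in PCB, as with an offset of 50; the cause was not tested. Of 1350 counts over gene lists, 98 moved by over 1.5 times. Leaving out a replicate could not be done, and no paired analysis was possible because there was 1 array per population.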

Other observations

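Lists of cell types further from the members gave these values, again with 1 array per population. Of 7 smooth muscle markers, 4 were at least 2-fold higher in PCB than in sfPCB and 0 were lower, between Myocd, a coactivator of muscle genes (log2 ratio 4.09), and Tagln (log2 ratio -0.87), and their summed signal was 25996.4 in Flk1+ MPC, 190981.3 in sfPCB, 271192.7 in PCB and 427314.6 in M+CM. In M+CM over PCB 1 was higher, Myh11 (log2 ratio 2.23), and 0 were lower, with Lmod1 the lowest (log2 ratio -0.51). Of the 7 blood markers compared, 0 were higher and 2 lower in PCB than in sfPCB, between Hba-x, an embryonic globin (log2 ratio 0.59), and Gata1 (log2 ratio -1.94). Relative to PCB, in M+CM 1 was higher, Itga2b (log2 ratio 1.12), and 4 were lower, with Hba-x the lowest (log2 ratio -6.64).

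Of the 6 endoderm markers compared, 0 were higher and 4 lower in PCB than in sfPCB, between Afp (log2 ratio -0.32) and Sox7 (log2 ratio -5.72), which was not well above background in PCB. In M+CM against PCB 0 of 4 were higher and 3 lower, between Ttr (log2 ratio 0.06) and Afp (log2 ratio -6.66). Of the 6 pluripotency markers, 0 were higher and 3 lower in PCB than in sfPCB, between Zfp42 (log2 ratio 0.16) and Pou5f1 (log2 ratio -2.47). In M+CM over PCB 1 was higher, Esrrb (log2 ratio 3.85), and 1 lower, Sox2 (log2 ratio -4.68).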
